A study of Mus musculus with 3 samples.

Results

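Stimulated CD4+ T cells with the most *Cdkn1a* RNA were examined in single-cell RNA sequencing (scRNA-seq) libraries of mouse spleen cells. *Cdkn1a* encodes p21, the inhibitor of cyclin-dependent kinases (CDKs) through which p53 stops the cell cycle. The members were chosen by a measured value, the number of *Cdkn1a* UMIs (unique molecular identifiers, by which a captured RNA molecule is counted once) divided by all UMIs of the cell. Eligible barcodes passed a fixed UMI minimum (the lowest one in the stimulated libraries had 4058), had under 15% UMIs of mitochondrial genes, and had fewer than 5 UMIs in all of *Mki67*, *Top2a*, *Cdk1*, *Birc5* and *Ccnb2*, which mark cells in division. The top 10% of eligible cells of each stimulated library were taken. This gave 720 of 7191 eligible cells in the stimulated WT library, which holds 10320 barcodes, and 688 of 6874 in the stimulated IFT20-KO library, which holds 13932. The 1408 members were set against the 4273 and 3762 eligible cells of the same library in which no *Cdkn1a* UMI was counted, called zero-*Cdkn1a* cells below. The whole series holds 32505 barcodes.

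The study compared naïve CD4+ T cells before and after activation and asked what the loss of IFT20, a subunit of the intraflagellar transport complex, does to activation. WT mice were *Ift20* f/f, and IFT20-KO mice were *Ift20* f/f CD4 cre, in which Cre is driven by the *Cd4* promoter, so that every cell that has expressed *Cd4*, later CD8 T cells included, can lose *Ift20*. Mice were of the C57BL/6 strain and, by the study's methods, males aged 5 to 10 weeks. Naïve CD4+ T cells were enriched from the spleen with magnetic beads, kept in buffer (the unstimulated library, from WT mice) or cultured for 24 h with antibodies to CD3 and CD28, each at 1 μg/mL (stimulated WT and IFT20-KO), and sorted as live CD3+ CD4+ cells. There was 1 library per condition, and the number of mice behind each is not given in the sources used here.

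With 1 library per condition and cells that are not replicates, no test was made and no p-value is given. Every 95% interval covers counting error only, and the WT and IFT20-KO libraries serve as a pair of separate readings of the same comparison within a library. The unstimulated library held 37325332 UMIs, that of stimulated WT cells 117734032 and that of IFT20-KO cells 106459650, with a median of 4576, 11870.5 and 4981 UMIs per barcode. Between the stimulated libraries 207 barcodes were shared. None was a member in both, and 9 WT members and 8 IFT20-KO members had a barcode that also occurs in the other stimulated library.

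p53 is a transcription factor that is kept low by MDM2, a ubiquitin ligase that p53 itself induces. When it accumulates, for instance after DNA damage or nucleolar stress, it induces genes of cell cycle arrest, cell death, DNA repair and metabolism, and p21 is its best known arrest gene. In T cells leaving quiescence, p21 is also induced by antigen receptor signaling, and it binds CDK2 and PCNA, so that it acts at the entry into and within S phase.

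*Cdkn1a* lies on the plus strand at chr17:29090976-29100727 (GRCm38, GENCODE M21). The promoter windows of RefSeq (build GRCm38.p6), which hold 250 bases before and 50 bases from each listed start, were searched for the p53 consensus, a pair of adjacent half-sites of 10 bases with the central core letters of each half-site intact and at most 1 mismatch elsewhere. The consensus is its own reverse complement, so that 1 search covers both strands. It was present in 18 of 32851 windows (0.0548%). One of these was the window of the first *Cdkn1a* start. The 250 bases before this start (chr17:29090729-29090978, plus strand) are shown because they hold this match, which is in capitals at chr17:29090928-29090947.

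Cdkn1a: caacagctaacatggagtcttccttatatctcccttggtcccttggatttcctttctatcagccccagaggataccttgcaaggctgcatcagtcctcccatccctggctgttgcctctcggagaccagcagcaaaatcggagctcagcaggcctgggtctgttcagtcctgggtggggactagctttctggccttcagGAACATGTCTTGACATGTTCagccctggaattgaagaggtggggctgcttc

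The match ends 32 bases before the first start listed for *Cdkn1a* and 2822 bases before the second, outside any annotated exon. Among the 15 genes that led the members upward (below), 11 had RefSeq windows under their symbol, and only *Gtse1* had a match. Among the 60 listed p53 targets, 48 had windows, and only *Rps27l* had a match. These short windows hold few of the elements that lie in introns or farther upstream, and *Phlda3*, *Psrc1*, *Ccng1*, *Mdm2* and *Bax* had no match in theirs. A match is a description of letters and not of binding. The matching sites are shown for comparison with that of *Cdkn1a*, with the whole match in capitals. That of *Gtse1* lies at chr15:85859945-85859964, in an exon at the gene's start, and that of *Rps27l* at chr9:66946296-66946315, within the gene but in no exon.

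Cdkn1a: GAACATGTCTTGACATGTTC
Gtse1: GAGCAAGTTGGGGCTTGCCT
Rps27l: GGGCTTGTTGAGACTTGTCC

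*Cdkn1a* RNA was found almost entirely in the stimulated libraries. In the unstimulated library 6 of 5257 eligible cells had a *Cdkn1a* UMI (0.114%, exact interval 0.0419% to 0.248%), at 0.369 CPM (UMIs of the gene per 1000000 UMIs, summed over cells). At a higher depth, a median of 13697 and 11526 UMIs against 5232, 2918 WT cells (40.6%, 39.4% to 41.7%) and 3112 IFT20-KO cells (45.3%, 44.1% to 46.5%) had one, at 99.1 and 104 CPM. Stray UMIs from free RNA arise within a library, and no cell type of the stimulated libraries is known to lack *Cdkn1a*, so that their share among these cells could not be measured. A cell with a single *Cdkn1a* UMI is for this reason not shown to express it. Every member had 2 or more, but the share of stray UMIs among these could not be measured either.

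**Figure D1:**
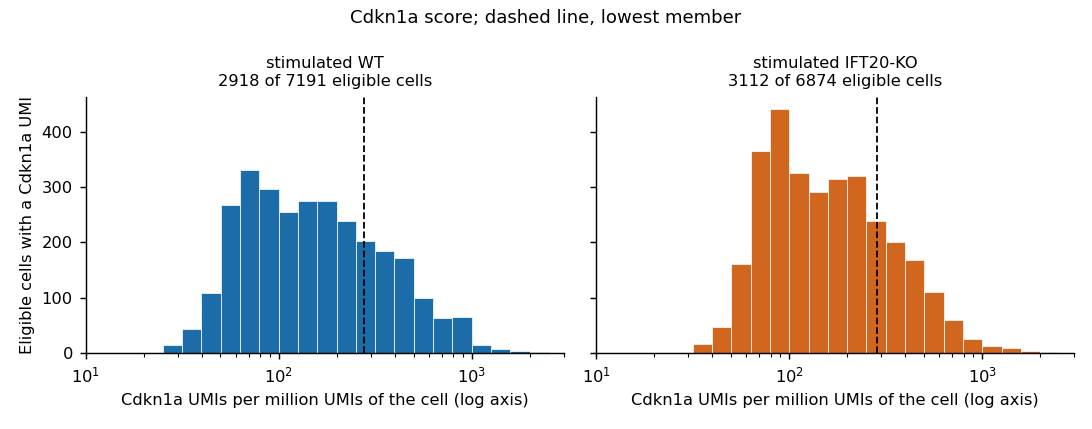
Histograms of the *Cdkn1a* score (*Cdkn1a* UMIs per 1000000 UMIs of the cell, log axis) over the eligible cells with a *Cdkn1a* UMI, in stimulated WT (left) and IFT20-KO (right) cells, with a dashed line at the lowest member. The line, at 278 in WT and 286 in IFT20-KO cells, falls in a continuous slope with no gap.

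The members are therefore described as a range of a score that shows no gap. Whether they form a separate cell type was not tested. The lowest WT member had 4 of 14407 UMIs (score 278) and the next cell outside 3 of 10813 (277). In IFT20-KO cells these were 3 of 10473 (286) and 3 of 10483 (286). Within 10% of the line lay 179 WT and 202 IFT20-KO cells, of which 81 and 92 were members. The median member had 7 *Cdkn1a* UMIs in WT (range 2 to 30) and 6 in IFT20-KO cells (2 to 27), and a score of 433 (quartiles 352 and 587) and 424 (349 and 555).

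Members had a median of 15460.5 UMIs and 3458 genes in WT against 12427 and 3066 in zero-*Cdkn1a* cells. In IFT20-KO cells these were 12911 and 3174 against 10502.5 and 2846. Eligible cells with a *Cdkn1a* UMI that were not members were about as deep as members. They had medians of 15706 UMIs and 3514 genes in WT and 12969 and 3201.5 in IFT20-KO cells. A cell read more deeply is less likely to show 0 *Cdkn1a* UMIs, so that depth moves with the choice of the compared cells. The mitochondrial share was slightly lower in members, with a median of 1.15% against 1.33% in WT and 1.01% against 1.12% in IFT20-KO cells. As all genes were measured in the cells that the score had sorted, the values below describe the sorted cells.

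*Ift20* checks the genotype labels. Members had 65.4 CPM in WT and 6.76 CPM in IFT20-KO cells, and zero-*Cdkn1a* cells had 82.9 and 6.55. WT members had less *Ift20* RNA than WT zero-*Cdkn1a* cells (log2 ratio −0.34, −0.45 to −0.23, and −0.0971 with cells thinned to the UMI minimum and chosen anew). The residual *Ift20* RNA of IFT20-KO cells had a ratio of 0.04, with a wide interval (−0.38 to 0.45) that includes the WT ratio. A difference between the libraries was not tested. The choice fixed the share of eligible cells that were members at the same value in both libraries. At the WT limit 708 IFT20-KO cells would have been members, and at the IFT20-KO limit 694 WT cells.

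Over all genes with 50 or more UMIs in both sets of cells together, 417 of 10376 (4.02%) were more than 1.5-fold higher in WT members than in zero-*Cdkn1a* cells, and 740 (7.13%) were more than 1.5-fold lower. In IFT20-KO cells, 299 of 10200 (2.93%) were higher and 677 (6.64%) lower by that measure. The median log2 ratio over all genes was 0.00 and −0.01. Of 10133 genes measured in both libraries, 177 were past 1.5-fold higher in both, of 374 in WT and 289 in IFT20-KO cells, and 369 were lower in both, of 675 and 660. Of these genes, 11 were past 1.5-fold in opposite directions. The log2 ratios of the libraries had a Pearson's r of 0.690 across all 10133 genes and of 0.911 across the 4962 with 20 CPM or more. Genes are not independent, and r is given as a description. None of those 4962 genes was past 1.5-fold in opposite directions.

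**Figure D2:**
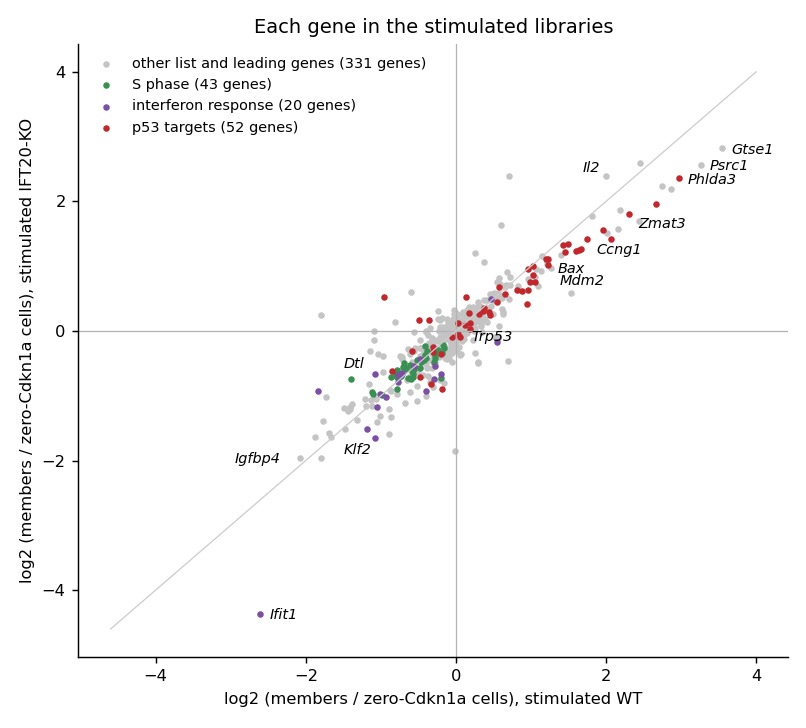
Log2 ratio of members over zero-*Cdkn1a* cells for each list gene and leading gene, in stimulated WT (x axis) against stimulated IFT20-KO cells (y axis), with p53 targets in red, S phase genes in green and interferon genes in purple. *Gtse1*, *Psrc1* and *Phlda3* lie at the upper end, above 2.3 in both libraries, *Trp53* lies at 0.09 and 0.01, and *Igfbp4* and *Klf2* lie low in both.

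Of the 15 genes that led the members upward in both libraries, 4 were on the list of p53 targets (*Phlda3*, *Zmat3*, *Bbc3* and *Ccng1*), 2 on the G2/M list and 2 on the cytokine list. *Phlda3*, whose product keeps the survival kinase AKT off the membrane, lies at chr1:135766119-135769136 on the plus strand. It stood at 225 CPM in WT members and 28.7 CPM in WT zero-*Cdkn1a* cells (log2 ratio 2.97, 2.88 to 3.06). In IFT20-KO cells it stood at 204 and 39.7 CPM (2.36, 2.26 to 2.45). Unstimulated cells had 0.940 CPM. With every cell thinned to the UMI minimum, *Phlda3* was found in 52.8% of WT members and 9.17% of zero-*Cdkn1a* cells, in 50.7% and 13.4% of IFT20-KO cells, and in 0.361% of unstimulated cells. The second marker of these cells was therefore higher along with the first in both libraries.

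*Gtse1*, whose product binds microtubules and exports p53 from the nucleus, had the highest ratio of the leading genes. It stood at 32.5 CPM in WT members and 2.79 CPM in zero-*Cdkn1a* cells (3.54, 3.27 to 3.82), and at 26.8 and 3.80 CPM in IFT20-KO cells (2.82). *Psrc1*, which encodes another microtubule protein, stood at 79.4 against 8.29 CPM (3.26) and at 75.3 against 12.7 CPM (2.56). Both genes were placed on the list of G2 and mitosis genes (G2/M) here, not on the p53 list. Whether p53 induces them was not tested. No other measured gene of the G2/M list was past 1.5-fold higher. *Zmat3*, an RNA-binding protein gene and p53 target, stood at 108 against 21.8 CPM (2.31) and 102 against 29.3 CPM (1.81). With thinned cells and members chosen anew these ratios were smaller, 1.90 and 1.40 for *Phlda3*, 2.08 and 1.64 for *Gtse1*, 2.03 and 1.43 for *Psrc1* and 1.39 and 1.03 for *Zmat3*.

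Of 18 arrest and growth genes of the p53 list, 16 had enough UMIs in each library. In members 8 (WT) and 7 (IFT20-KO) were past 1.5-fold higher (among all genes, 4.02% and 2.93%). Past 1.5-fold lower were 1 and 2 (6.25% and 12.5%, against 7.13% and 6.64% of all genes). The medians were 0.55 and 0.46. *Ccng1*, encoding cyclin G1, stood at 447 against 133 CPM in WT (1.75) and 400 against 150 CPM in IFT20-KO cells (1.42). In thinned cells its ratios were 1.15 and 0.75. *Sesn2* and *Ddit4* encode restraints on the growth kinase mTORC1. *Ddit4* stood at 244 against 88.7 CPM (1.46) and 230 against 98.2 CPM (1.23). *Sesn2* stood at 38.3 against 13.6 CPM (1.49) and 35.0 against 13.8 CPM (1.34). *Plk2*, a polo-like kinase gene, had ratios of 1.43 and 1.32. Not all targets were higher. *Sesn1*, a sestrin like *Sesn2*, had a log2 ratio of −0.85 in WT and −0.61 in IFT20-KO cells.

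Death genes had the highest median of the p53 groups, 1.02 in WT and 1.00 in IFT20-KO cells. Of 19 listed, 14 and 15 had enough UMIs. Of these, 10 and 11 were past 1.5-fold higher (71.4% and 73.3%, against 4.02% and 2.93% of all genes) and none lower. *Bax*, encoding the pore-forming protein of mitochondria, stood at 563 against 240 CPM (1.23) and 507 against 234 CPM (1.11), with 0.82 and 0.65 in thinned cells. *Bbc3*, encoding the BH3-only protein PUMA, stood at 80.0 against 20.6 CPM (1.95) and 74.9 against 25.3 CPM (1.56). *Fas*, the death receptor gene, stood at 54.0 against 23.2 CPM (1.22) and 45.1 against 22.3 CPM (1.02). *Siva1*, in contrast, stood at 167 against 153 CPM (0.13) and 183 against 172 CPM (0.09). Members and compared cells had both passed the sort for live cells, and their mitochondrial shares are given above. The cause of the higher death genes was not tested.

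Repair and metabolism genes were less uniform, with medians of 0.15 and 0.29. Of 22 measured, 7 in each library were past 1.5-fold higher (31.8%, against 4.02% and 2.93% of all genes). Past 1.5-fold lower were 2 in each (9.09%, against 7.13% and 6.64%). *Rps27l*, encoding a ribosomal protein homolog that p53 induces, stood at 899 against 390 CPM (1.20) and 799 against 370 CPM (1.11). *Ddb2*, a gene of nucleotide excision repair, was lower, with ratios of −0.48 and −0.71. Over all 60 targets, 52 and 53 had enough UMIs, 25 in each library were past 1.5-fold higher (48.1% and 47.2%, against 4.02% and 2.93% of all genes), and 3 and 4 were lower (5.77% and 7.55%, against 7.13% and 6.64%). The medians were 0.56 and 0.52. With cells thinned to the UMI minimum and members chosen anew, which then takes in every cell with a *Cdkn1a* UMI left, they were 0.381 and 0.253. The summed level of the listed targets was 5344 CPM in WT members, 2960 CPM in WT zero-*Cdkn1a* cells and 3261 CPM in unstimulated cells. In IFT20-KO cells it was 4910 and 2966 CPM.

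The RNA of p53 itself differed little. *Trp53* stood at 198 CPM in WT members against 186 CPM (0.09), and at 209 against 207 CPM in IFT20-KO cells (0.01). *Mdm2*, encoding the ligase that degrades p53 and itself a target, stood at 85.7 against 35.7 CPM (1.26) and 74.0 against 37.9 CPM (0.97), with 0.75 and 0.54 in thinned cells. Unstimulated cells had 49.7 CPM of *Mdm2*, more than zero-*Cdkn1a* cells. *Mdm4*, a relative that masks p53, had smaller ratios of 0.62 and 0.30. *Chek1*, a kinase gene of the DNA damage checkpoint, had ratios of −0.97 and −0.64, and *Atm*, another, had −0.43 and −0.34, within 1.5-fold. *Atr*, a relative of *Atm*, had −0.07 and −0.27. Of 16 regulators, *Mdm2* included, 2 and 1 were past 1.5-fold higher (12.5% and 6.25%, against 4.02% and 2.93% of all genes) and 2 and 1 lower (12.5% and 6.25%, against 7.13% and 6.64%), with 9 and 10 above 0 and medians of 0.07 and 0.06.

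Other inhibitors of CDKs did not accompany *Cdkn1a*. Of the 7 listed, 4 had enough UMIs, and all 4 were below 0 in both libraries. *Cdkn1b*, encoding p27, stood at 19.4 against 27.0 CPM (−0.47) and 29.9 against 36.0 CPM (−0.27). *Cdkn2d*, encoding p19, had ratios of −0.05 (−0.28 to 0.18) and −0.34 (−0.61 to −0.07). *Cdkn1c* and *Cdkn2c* were under 7 CPM in every set of stimulated cells.

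**Figure D3:**
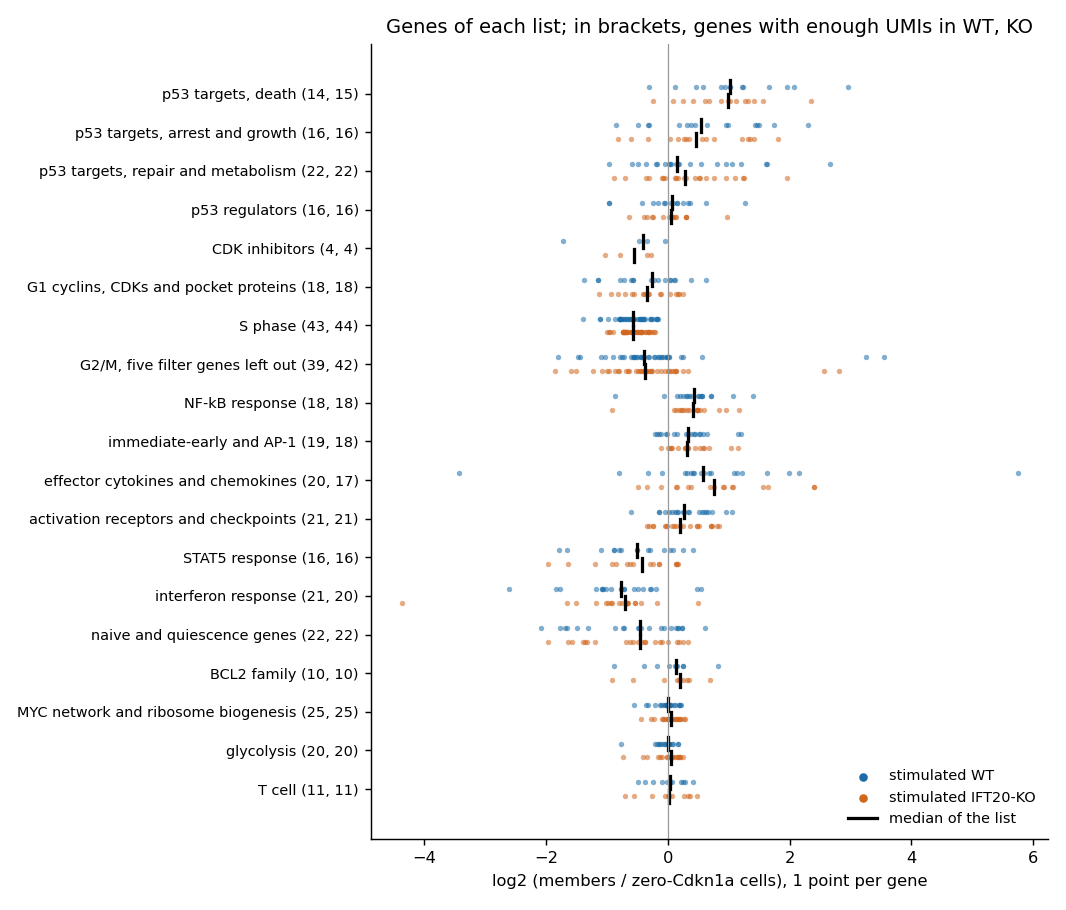
Log2 ratio of members over zero-*Cdkn1a* cells for the genes of 19 lists, 1 point per gene, in stimulated WT (blue, upper row of each pair) and IFT20-KO cells (orange, lower row), with a black bar at the median of the list and the numbers of genes measured in brackets. The p53 death genes have the highest medians, at 1.02 and 1.00, the interferon genes the lowest, at −0.78 and −0.71, and all S phase genes lie below 0.

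Genes of DNA replication were lower in members without exception. All 43 measured S phase genes in WT and all 44 in IFT20-KO cells were below 0, with medians of −0.58 and −0.57, and 20 and 19 were past 1.5-fold lower (46.5% and 43.2%, against 7.13% and 6.64% of all genes). Their summed level was 2339 CPM in WT members, 3500 CPM in zero-*Cdkn1a* cells and 762 CPM in unstimulated cells. In IFT20-KO cells it was 2769 and 4062 CPM. Members thus lay between unstimulated cells and stimulated cells without *Cdkn1a*. With thinned cells the medians were −0.34 and −0.24. *Mcm6*, a subunit of the replicative helicase, stood at 221 against 368 CPM (−0.74) and 258 against 415 CPM (−0.69). *Gmnn*, encoding the licensing inhibitor geminin, stood at 37.0 against 73.0 CPM (−0.98) and 42.8 against 85.3 CPM (−0.99). *Dtl*, whose product directs p21 to destruction in S phase, stood at 11.4 against 30.1 CPM (−1.40) and 25.1 against 41.9 CPM (−0.74).

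The 18 measured genes of G1 had medians of −0.25 and −0.34. Of these, 12 and 13 were below 0, and 6 and 4 were past 1.5-fold lower (33.3% and 22.2%, against 7.13% and 6.64% of all genes). In WT 1 was past 1.5-fold higher (5.56%, against 4.02% of all genes). The most abundant among them differed little. *Ccnd2*, encoding cyclin D2, stood at 919 against 894 CPM (0.04) and 914 against 812 CPM (0.17), and *Cdk4*, its partner, had ratios of 0.03 and 0.04. *Cdc25a*, a phosphatase that activates CDK2, had ratios of −0.57 and −0.58, and *Pcna*, the sliding clamp gene, had ratios of −0.28 and −0.37. Genes of G2 and mitosis, with the 5 genes of the cell filter left out, had medians of −0.40 and −0.37 over 39 and 42 genes. Of these, 10 and 13 were past 1.5-fold lower (among all genes, 7.13% and 6.64%). The 2 genes of that list past 1.5-fold higher were *Gtse1* and *Psrc1* in both libraries (among all genes, 4.02% and 2.93%). Without that pair, which was set aside after their values were seen, the medians were −0.40 and −0.38. The cell filter itself keeps out dividing cells, and the sum of its 5 genes was 0 in 79.7% of WT members against 72.9% of zero-*Cdkn1a* cells, and in 69.5% against 63.1% of IFT20-KO cells.

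Growth programs that accompany activation were alike in both sets. None of 25 genes of the MYC network and ribosome biogenesis was past 1.5-fold in either library, with medians of 0.00 and 0.05. *Npm1*, encoding nucleophosmin, stood at 3671 against 3245 CPM (0.18) and 3633 against 3237 CPM (0.17). Of 20 glycolysis genes the median was 0.00 and 0.05. In each library 1 was past 1.5-fold, on the lower side (5.0%, against 7.13% and 6.64% of all genes). *Ldha*, the lactate dehydrogenase gene, stood at 2412 against 2153 CPM (0.16) and 2169 against 1953 CPM (0.15). The sum of the MYC list was 2758 CPM in unstimulated cells and between 8847 and 9649 CPM in all 4 sets of stimulated cells.

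Several genes that T cell receptor and CD28 signals induce were higher in members. *Il2*, encoding the T cell growth factor interleukin-2, stood at 270 CPM in WT members, 67.8 CPM in zero-*Cdkn1a* cells and 0.470 CPM in unstimulated cells (1.996). In IFT20-KO cells it stood at 151 and 28.7 CPM (2.40, but 1.26 in thinned cells and 1.47 against all other eligible cells). At equal depth 20.6% of WT members and 7.49% of zero-*Cdkn1a* cells had an *Il2* UMI, against 17.6% and 6.62% of IFT20-KO cells and 0.0951% of unstimulated cells. *Il2* was thus more frequent among members in both genotypes, although most members had none. *Tnfsf4*, encoding OX40 ligand, stood at 26.5 against 3.65 CPM (2.86) and 24.3 against 5.31 CPM (2.19). Of 20 and 17 measured cytokine genes, 10 in each library were past 1.5-fold higher (among all genes, 4.02% and 2.93%). Past 1.5-fold lower were 2 in WT and 0 in IFT20-KO cells (among all genes, 7.13% and 6.64%). The medians were 0.57 and 0.75, the latter 0.46 in thinned cells. The higher genes in WT include *Il4*, whose 80 UMIs in members all came from 1 cell, and the lowest gene in WT, *Ifng*, had 170 of the 202 UMIs of zero-*Cdkn1a* cells in 1 cell.

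Some chemokine sums rested on few cells. Of the *Ccl1* UMIs of WT members, 240 of 245 came from 1 cell, and of the *Xcl1* UMIs of IFT20-KO members, 114 of 280 (40.7%). *Ccl3* was found in 63 WT members (8.75%, against 4.70% of zero-*Cdkn1a* cells, without thinning), and 1 cell held 622 of its 1040 UMIs (59.8%). In IFT20-KO cells it was found in 82 members (11.9%, against 5.45%), with at most 10.0% of its UMIs in 1 cell. *Ccl4* was found in 23.9% against 17.4% of WT cells, with 27.4% of its UMIs in 1 member, and in 34.9% against 22.1% of IFT20-KO cells, with 3.37% of its UMIs in 1 member. The share of cells therefore rests less on single cells for these genes, but it was not thinned and members were read more deeply.

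NF-kB response genes had medians of 0.43 and 0.41 over 18 genes. In each library 4 were past 1.5-fold higher (22.2%, against 4.02% and 2.93% of all genes) and 1 lower (5.56%, against 7.13% and 6.64%). The median was 0.21 in thinned IFT20-KO cells and 0.28 for the top 20% in WT. *Nfkbia*, encoding the inhibitor that NF-kB induces against itself, stood at 551 against 336 CPM (0.71) and 623 against 348 CPM (0.84), with ratios of 0.34 and 0.41 in thinned cells. *Gadd45b* stood at 81.0 against 38.5 CPM (1.07) and 47.6 against 24.6 CPM (0.96). *Bcl3*, a nuclear relative of the inhibitors, was the gene below −0.8, with ratios of −0.87 and −0.92. Immediate-early genes had medians of 0.33 and 0.32. Of 19 and 18 measured, 3 and 4 were past 1.5-fold higher (15.8% and 22.2%, against 4.02% and 2.93% of all genes) and none lower. Below 0 lay 6 and 2, among them *Nr4a1* in WT (−0.21, and 0.07 in IFT20-KO cells). *Fosl1*, an AP-1 subunit, had ratios of 1.15 and 1.16, *Ier5* had 1.21 and 1.03, and *Egr1* had 0.54 and 0.53. Of 21 surface molecules of activated cells, 6 and 5 were past 1.5-fold higher (28.6% and 23.8%, against 4.02% and 2.93% of all genes). In WT 1 was past 1.5-fold lower (4.76%, against 7.13%) and in IFT20-KO cells 0. Below 0 lay 4 and 7, and the medians of the list were 0.27 and 0.21. *Pdcd1*, encoding PD-1, stood at 213 against 129 CPM (0.72) and 239 against 146 CPM (0.71). *Cd200* stood at 315 against 162 CPM (0.96) and 325 against 186 CPM (0.80), and *Cd69* had ratios of 0.51 and 0.48.

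Of 16 targets of STAT5, the factor through which IL-2 acts, 7 in each library were past 1.5-fold lower in members. That was 43.8%, against 7.13% and 6.64% of all genes. None was past 1.5-fold higher and 4 lay above 0, and the medians of the list were −0.51 and −0.43. The list summed to 1939 against 2075 CPM and 1750 against 1871 CPM. *Socs1* stood at 63.5 against 109 CPM (−0.78) and 53.2 against 84.8 CPM (−0.67), and *Cish*, another feedback inhibitor of cytokine signaling, stood at 60.4 against 86.2 CPM (−0.51) and 42.7 against 77.1 CPM (−0.85). *Il2ra*, the IL-2 receptor alpha chain gene, was on this list too and stood at 199 against 168 CPM (0.25) and 186 against 170 CPM (0.13). *Il2* and these feedback genes of its pathway hence lay on opposite sides of 0. In the BCL2 family the survival genes differed in direction. *Bcl2* stood at 66.7 against 122 CPM (−0.88) and 69.5 against 131 CPM (−0.91), with −0.53 in WT against depth-weighted cells and −0.43 in thinned IFT20-KO cells. *Bcl2l1*, encoding BCL-XL, stood at 54.9 against 31.03 CPM (0.82) and 51.3 against 31.8 CPM (0.69), with 0.50 and 0.39 in thinned cells.

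Interferon genes had the lowest median of the lists with 10 or more genes, −0.78 over 21 genes and −0.71 over 20. Of these, 13 and 15 were past 1.5-fold lower (among all genes, 7.13% and 6.64%). None was past 1.5-fold higher (among all genes, 4.02% and 2.93%). Their summed level was 1623 CPM in WT members, 2600 CPM in zero-*Cdkn1a* cells and 2361 CPM in unstimulated cells. It was 1002 and 1601 CPM in IFT20-KO cells. *Gbp2*, a guanylate-binding protein gene, stood at 151 against 341 CPM (−1.18) and 50.6 against 145 CPM (−1.52). *Bst2*, encoding tetherin, was above 0 in both libraries, with ratios of 0.47 and 0.49, and *Isg15* in WT alone, with 0.55 and −0.17. *Ly6a*, encoding Sca-1, which was among the 15 genes that led downward, stood at 199 against 411 CPM (−1.05) and 20.05 against 53.2 CPM (−1.41).

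Of the 15 genes that led the members downward, 3 were on the list of naïve and quiescence genes and 2 on the interferon list. *Igfbp4* stood at 27.4 against 115 CPM (−2.08) and 49.8 against 194 CPM (−1.96). *Klf2*, encoding the factor that sustains quiescence and exit from lymph nodes, stood at 47.0 against 152 CPM (−1.69) and 42.5 against 126 CPM (−1.57). Of 22 naïve and quiescence genes, 9 in each library were past 1.5-fold lower (40.9%, against 7.13% and 6.64% of all genes). Above 0 lay 7 and 5, and 1 in WT (*Tob1*, 0.61) was past 1.5-fold higher (4.55%, against 4.02%). The medians were −0.46 and −0.46. The list summed to 2494 against 2899 CPM and 2430 against 2940 CPM, and its most abundant gene, *Slfn2*, stood at 623 against 529 CPM and 566 against 474 CPM. *Tcf7*, encoding the factor TCF-1, had ratios of −0.49 and −0.57, and *Ccr7*, the lymph node homing receptor gene, had −0.44 and −0.69. Of the leading genes on no list, *Ecm1* stood at 16.5 against 60.8 CPM (−1.88) and 11.9 against 37.1 CPM (−1.64), *Ms4a4b* at 224 against 516 CPM (−1.21) and 198 against 409 CPM (−1.05), and *Itgb7*, encoding the beta 7 integrin of gut homing, at 35.8 against 78.4 CPM (−1.13) and 32.7 against 68.6 CPM (−1.07).

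**Figure D4:**
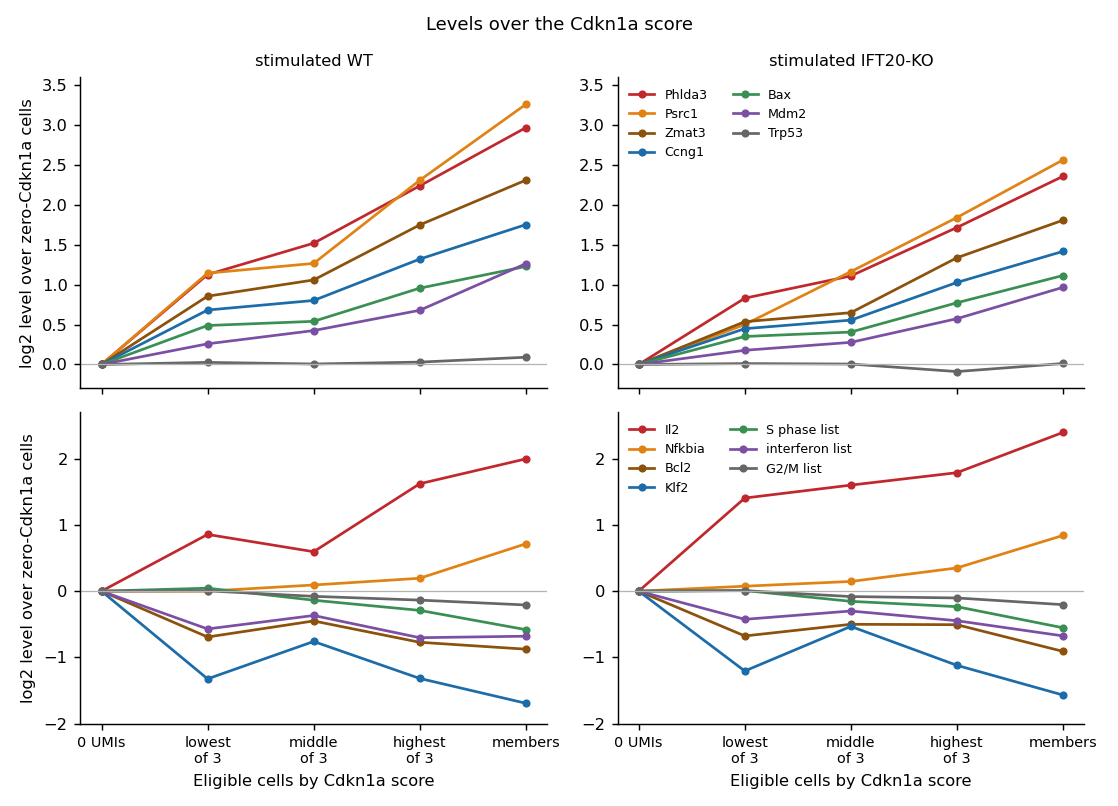
Log2 of the summed level over that of zero-*Cdkn1a* cells (y axis) in eligible cells ordered by *Cdkn1a* score (x axis: 0 UMIs, the cells between in 3 equal groups, members), for p53 pathway genes (upper row) and other genes and lists (lower row), in stimulated WT (left) and IFT20-KO cells (right). The p53 targets are highest in the members in both libraries, *Trp53* lies near 0 throughout, and *Klf2* lies lower in the lowest group than in the middle one.

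The cells between, with a *Cdkn1a* UMI but a score under the line (2198 WT and 2424 IFT20-KO cells), were split into 3 equal groups by score to see whether levels were graded. For the p53 targets plotted they were. *Phlda3* stood at 28.7, 62.8, 82.4, 136 and 225 CPM in WT from zero-*Cdkn1a* cells over these groups to members, and at 39.7, 70.7, 85.7, 131 and 204 CPM in IFT20-KO cells. *Mdm2* stood at 35.7, 42.7, 48.0, 57.2 and 85.7 CPM, and at 37.9, 42.8, 45.9, 56.4 and 74.0 CPM. The summed S phase genes stood at 3500, 3610, 3183, 2862 and 2339 CPM in WT and at 4062, 4087, 3651, 3453 and 2769 CPM in IFT20-KO cells, so that they were slightly higher in the lowest group and lower from there on.

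Naïve and interferon genes had another course. *Klf2* stood at 152, 60.6, 89.7, 60.9 and 47.0 CPM in WT and at 126, 54.6, 87.1, 58.0 and 42.5 CPM in IFT20-KO cells. The summed interferon genes stood at 2600, 1751, 2016, 1597 and 1623 CPM and at 1601, 1192, 1301, 1175 and 1002 CPM. Neither was graded: in the lowest group both lay well below zero-*Cdkn1a* cells, and in the middle group nearer to them. The cells of the lowest group were also the deepest, with medians of 16867 and 14196 UMIs, against 12786 and 10699 in the middle group. With zero-*Cdkn1a* cells weighted to the members' UMIs per cell, the WT interferon median was −0.47. Among cells with 8000 or more UMIs the WT interferon median was −0.69 and *Klf2* −1.52, and in IFT20-KO cells they were −0.61 and −1.29.

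The members differed among themselves. The summed p53 targets of single members had a median of 5225 CPM in WT (quartiles 4354 and 6199) and 4725 CPM in IFT20-KO cells (3935 and 5673), against medians of 2803 and 2859 CPM in single zero-*Cdkn1a* cells. As medians over single cells, S phase genes stood at 1675 CPM in WT members, 2831 CPM in the cells between and 3109 CPM in zero-*Cdkn1a* cells, and at 2395, 3500 and 3819 CPM in IFT20-KO cells. Interferon genes stood at 1211, 1305 and 1874 CPM and at 879, 1026 and 1286 CPM. Cytokine genes stood at 1038, 950 and 912 CPM and at 1079, 910 and 880 CPM, while their sums stood at 1802 against 1248 CPM in WT and 1443 against 1111 CPM in IFT20-KO cells, so that the typical member differed less in cytokines than the sums did.

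Members were then split into 3 equal groups by their summed p53 targets, a split made after seeing the data. From the lowest to the highest group *Cdkn1a* stood at 426, 492 and 599 CPM in WT and at 440, 466 and 542 CPM in IFT20-KO cells. *Phlda3*, itself part of the sum, stood at 118, 214 and 345 CPM and at 107, 197 and 300 CPM. S phase genes, which share no gene with the sum, stood at 2906, 2226 and 1879 CPM and at 3069, 2817 and 2440 CPM. *Il2* stood at 255, 280 and 275 CPM in WT and at 127, 153 and 172 CPM in IFT20-KO cells, and interferon genes stayed between 989 and 1014 CPM in IFT20-KO and between 1579 and 1659 CPM in WT members. Naïve and quiescence genes stood at 2332, 2412 and 2743 CPM in WT and at 2327, 2366 and 2592 CPM in IFT20-KO members. The summed *Ccl1*, *Ccl3*, *Ccl4* and *Xcl1* stood at 603, 230 and 248 CPM and at 334, 329 and 189 CPM. Among members, then, the levels of S phase and naïve genes differed with that of p53 targets, in opposite directions. That of interferon genes was about the same in each group. In zero-*Cdkn1a* cells split the same way, S phase genes stood at 3601, 3577 and 3330 CPM in WT and at 4169, 4197 and 3807 CPM in IFT20-KO cells. The highest group thus had the lowest S phase level there too. Naïve and quiescence genes stood at 2919, 2901 and 2879 CPM and at 2862, 2918 and 3043 CPM in these cells.

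**Figure D5:**
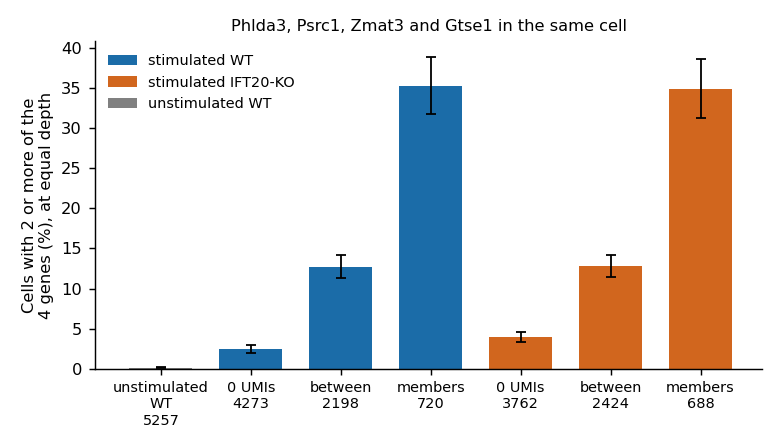
Percentage of eligible cells with a UMI of 2 or more of *Phlda3*, *Psrc1*, *Zmat3* and *Gtse1* (y axis), every cell thinned to the UMI minimum of the filter, with exact 95% intervals (counting error only) and the number of cells under each bar. The bars of members stand at 35.3% and 34.9%, those of the cells between at 12.7% in both libraries, and those of zero-*Cdkn1a* cells at 2.41% and 3.93%.

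A panel of *Phlda3*, *Psrc1*, *Zmat3* and *Gtse1*, chosen after their values were seen, was used to count single cells at equal depth. Of WT members, 254 of 720 (35.3%, 31.8% to 38.9%) had 2 or more of the 4 genes, against 2.41% of zero-*Cdkn1a* cells. Of IFT20-KO members, 240 of 688 (34.9%, 31.3% to 38.6%) did, against 3.93%. In unstimulated cells 5 of 5257 (0.0951%) did. None of the 4 was found in 172 WT members (23.9%) and 192 IFT20-KO members (27.9%) at this depth, which cannot show that they are absent.

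Markers of other cell types that the sort could have let through were low or alike in both sets for the most part, with exceptions among B cell, NK cell and regulatory T cell genes. T cell genes had medians of 0.03 and 0.03 over 11 genes and lay on both sides of 0. *Cd2* had ratios of −0.48 and −0.56, *Thy1* −0.38 and −0.70, the latter past 1.5-fold, and *Trbc1* 0.41 and 0.48. *Cd3e* stood at 919 against 901 CPM and 974 against 933 CPM, and *Cd4* at 117 against 95.7 CPM and 149 against 124 CPM. The 12 B cell genes summed to 196 against 193 CPM and 203 against 207 CPM, most of it *Ighm*, at 155 against 146 CPM and 164 against 164 CPM, and 2 of the 12 in WT and 3 in IFT20-KO cells were at 0 UMIs. *Cd79b* had a ratio of −0.59 in IFT20-KO cells, past 1.5-fold lower. *Cd8b1* stood at 7.94 against 9.61 CPM and 7.85 against 11.0 CPM. The 10 myeloid genes summed to 76.1 against 79.7 CPM and 77.8 against 84.8 CPM, mostly *Cst3*, with 4 and 5 at 0 UMIs. Of 8 NK cell genes 5 were at 0 UMIs in each library, and the list summed to 7.02 against 2.59 CPM and 6.10 against 3.996 CPM. Nearly all of it was *Nkg7*, which activated T cells also express, at 7.02 against 2.43 CPM (1.53, past 1.5-fold) and 5.88 against 3.92 CPM (0.58), and its part in the results was not tested. The 8 red cell and platelet genes summed to under 0.3 CPM in each set. *Foxp3*, the factor of regulatory T cells, stood at 2.28 against 3.65 CPM and 2.62 against 5.65 CPM, with a UMI in 16 WT members (2.22%, against 1.99% of zero-*Cdkn1a* cells) and 16 IFT20-KO members (2.33%, against 3.24%), without thinning. Its ratios of −0.68 and −1.11 were past 1.5-fold lower. Of that list of 6 genes, 5 lay above 0 in WT and 3 in IFT20-KO cells, where *Ctla4* (−0.31) and *Tnfrsf18* (−0.03) lay below it too. *Nrp1* had ratios of 0.84 and 0.64, *Ikzf2* 0.26 and 1.20 at under 2 CPM, and *Il2ra* 0.25 and 0.13, and the list summed to 404 against 355 CPM and 394 against 387 CPM.

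Some other lists showed small medians. Those of TGF-beta and SMAD genes were −0.07 and −0.10, those of the oxidative stress response −0.11 and −0.10, and those of the amino acid and endoplasmic reticulum stress response −0.11 and 0.09. *Atf4*, the factor of the latter response, stood at 267 against 176 CPM (0.60) and 216 against 149 CPM (0.53). *Id2*, of the TGF-beta list, was among the 15 genes that led downward, with ratios of −1.01 and −1.31. Intraflagellar transport genes had medians of 0.24 over 14 genes in WT and −0.02 over 13 in IFT20-KO cells.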

How the data were processed

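The authors aligned the reads to mm10 and counted UMIs with Cell Ranger 3.1.0, per the labels' processing notes and the file headers, and deposited raw UMI counts per gene (31053) and barcode without normalization. The labels name a 5′ kit and the study's methods a 3′ kit. Members, gene lists and alternatives were chosen with earlier results of these data known, and the match rule for promoters was narrowed to adjacent half-sites after a first search with a gap of up to 13 bases, which matched 137 windows (0.417%). Counts were summed over the cells of a set and scaled to 1000000 (CPM). The log2 ratio of members over zero-*Cdkn1a* cells has an exact binomial interval at 95%, CPM an exact Poisson interval and shares an exact Clopper-Pearson interval, all for counting error only. Genes with 50 or more UMIs over both sets were measured, those at 0 in one set with a floor of 3 counts over the set. *Cdkn1a* and the 5 filter genes were left out of gene counts and lists. The calculation was tested on simulated data. Named were *Cdkn1a*, *Phlda3*, *Ift20*, *Trp53*, *Mdm2*, *Ccng1*, *Bax*, the 5 filter genes, the 15 higher and 15 lower genes of 20 CPM or more with the largest ratio of the same sign in both libraries (ranked by the smaller), and up to 6 genes of each list by that ranking or by level. *Sesn1*, *Ddb2*, *Atr*, *Isg15*, *Tob1*, *Il4*, *Ifng*, *Ccl1*, *Xcl1* and *Bop1* were picked after their values were seen. No doublet caller was run. Some genes that the rule names are not reported here. Python 3.11.15, numpy 2.4.6, scipy 1.17.1, pandas 2.3.3 and matplotlib 3.10.9 were used. Alternatives changed the scaling, depth, share of cells taken, compared cells, cell filters and gene minimum.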

Additional observations from a re-analysis of the deposited data

Results flagged for a closer look

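Of 446 list and leading genes measured in both stimulated libraries, 67 had intervals that did not meet between WT and IFT20-KO cells. The same count was not made over all 10133 genes, and the leading genes were picked for large ratios. The 67 are therefore not read as a difference between the genotypes. In 3 of these genes both intervals left out 0, on opposite sides. *Bop1*, of ribosome biogenesis, had a log2 ratio of −0.121 in WT and 0.185 in IFT20-KO cells. *Mthfd2*, of mitochondrial folate metabolism, had −0.0816 and 0.127, and *Psat1*, of serine synthesis, had −0.102 and 0.123. All 3 are small ratios, and the difference between the libraries was not tested, since each condition has 1 library.

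*Cdkn1a* RNA was also present in stimulated barcodes that the cell filter left out, above the level of the unstimulated library. Under the UMI minimum it stood at 81.4 CPM in 2713 WT barcodes and 92.0 CPM in 6688 IFT20-KO barcodes, against 0.403 CPM in 2990 unstimulated barcodes. In cells over the limit of the 5 cycling genes it stood at 102 CPM in 411 WT cells and 109 CPM in 370 IFT20-KO cells, against no UMI in 6 unstimulated cells. In these cycling cells *Phlda3* stood at 77.7 and 91.2 CPM, *Psrc1* at 17.6 and 22.2 CPM and *Gtse1* at 29.7 and 26.5 CPM, the last about the level of the members (32.5 and 26.8 CPM). *Mdm2* stood at 104 and 92.9 CPM in the stimulated barcodes under the UMI minimum, above the members (85.7 and 74.0 CPM). In the unstimulated barcodes under that minimum it stood at 66.9 CPM.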

How the results depend on the processing

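The p53 target median stayed above 0 under all 14 alternatives, from 0.381 to 0.678 in WT and from 0.253 to 0.582 in IFT20-KO cells. The number of genes past 1.5-fold, 1157 in WT and 976 in IFT20-KO cells, was 647 and 392 with cells thinned to the UMI minimum and chosen anew, 2024 and 1727 with a minimum of 10 UMIs per gene, 647 and 528 with a minimum of 200, and 644 in IFT20-KO cells for the top 20%. Of 530 alternatives for the other lists and 15 genes, all added after seeing the data, 402 stayed within the range set for them, 128 moved and none was counted as reversed. For a gene the range was its counting interval. For a list it ran from the median of its genes' lower bounds to the median of their upper bounds, which is no interval of the list median. A gene could count as reversed only where its main interval left out 0. For the single genes, a changed minimum of UMIs per gene cannot move a ratio, so those alternatives stayed the same by construction. *Trp53* and *Ift20* in IFT20-KO cells, near 0, ranged across it (−0.0376 to 0.0556 and −0.0291 to 0.159).

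Thinning made members of all 1564 and 1750 cells with a *Cdkn1a* UMI left, and most values that moved by over 1.5 times did so under it. It gave *Phlda3* 1.90 and 1.40, *Gtse1* 2.08 and 1.64, *Psrc1* 2.03 and 1.43, *Zmat3* 1.39 and 1.03, *Mdm2* 0.75 and 0.54, *Ccng1* 1.15 and 0.75, *Nfkbia* 0.34 and 0.41, *Bcl2l1* 0.50 and 0.39 and S phase medians of −0.34 and −0.24. In IFT20-KO cells it also gave *Bax* 0.65, *Il2* 1.26, *Klf2* −0.99, *Bcl2* −0.43, and medians of −0.41 for interferon, −0.27 for naïve, 0.46 for cytokine and 0.21 for NF-kB genes. In WT cells, with zero-*Cdkn1a* cells weighted to the members' depth, *Bcl2* was −0.53, the naïve median was −0.28 against all other eligible cells and −0.29 for the top 5%, and the NF-kB median was 0.28 for the top 20%. *Il2* in IFT20-KO cells was 1.47 against all other eligible cells. The causes were not tested. No paired analysis was possible because each condition has 1 library.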
